A study of Mus musculus with 12 samples.

Results

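The genes of the TNF superfamily were followed in RNA-seq counts of mouse LSK cells (Lin-Sca-1+c-Kit+ hematopoietic stem and progenitor cells, HSPCs) in which the cohesin subunit *Rad21* was knocked down. The members were the protein-coding genes whose symbols begin with Tnfsf (ligands) or Tnfrsf (receptors) followed by a number. Of 46078 counted genes, 31 fitted this rule (11 ligands and 20 receptors), and 26 of them had at least 10 counts in at least 3 of the 12 libraries (8 ligands and 18 receptors). The 5 genes left out were the ligands *Tnfsf13b*, *Tnfsf15* and *Tnfsf18* and the receptors *Tnfrsf17* and *Tnfrsf19*. Family genes with older symbols, such as *Tnf*, *Fas* and *Cd27*, are not members and are described after them.

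There were 3 libraries in each of 4 groups, all from bone marrow cells of strain C57BL/6 whose LSK cells had been infected with a lentivirus that carries GFP and an shRNA against *Rad21* (shRad21) or, as the control, against luciferase (shLuci). The culture libraries were made from sorted GFP+CD48-Sca-1+ cells of LSK cultures, 3 d after isolation and infection. For the in vivo libraries, recipients of infected LSK cells gave the sorted GFP+ LSK cells 3 mo after transplantation by the labels (the study's text gives a later time), so every in vivo library came from cells that had repopulated irradiated hosts. The labels give no age of the animals and do not say whether replicates came from separate cultures or mice, so p-values measure the spread between these libraries, which may be technical. The culture libraries were made with TruSeq RNA v2 and the in vivo libraries with SMART-Seq v4 and Nextera XT, so kit, sorted population and setting cannot be told apart.

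TNF superfamily ligands are trimeric proteins of the cell surface that can also be shed, and they bind receptors with cysteine-rich extracellular repeats. Receptors with a death domain can recruit TRADD or FADD and start cell death, most others bind TRAF adaptors and feed into NF-κB and MAP kinases, and decoy receptors take up ligand without passing on a full signal. In blood formation the family is known for survival signals to B cells (BAFF and APRIL), costimulation of T cells (OX40, 4-1BB and GITR), and inflammatory signals that HSPCs themselves receive through the TNF receptors.

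The libraries held between 15235129 and 29846689 counts, and 3 counts in a library corresponded to between 0.107 and 0.21 CPM (each count scaled to the size of its library), which was taken as the limit of detection. Levels are given as CPM on 1 scale for all 12 libraries or, where genes are compared with each other, as CPM per kilobase of exons (RPKM). The log2 difference of *Rad21* itself was -1.52 in culture (SE 0.0885, adjusted p = 1.16e-05) and -1.43 in vivo (SE 0.0707, adjusted p = 8.82e-06), with no overlap between shRad21 and shLuci libraries in either experiment. The LSK markers *Kit*, *Ly6a*, *Cd34*, *Mecom*, *Hlf*, *Procr*, *Slamf1*, *Flt3* and *Cd48* were all detected. Their sums were lower with shRad21 in both settings, without overlap. They were 2613 to 2802 CPM in shLuci and 2366 to 2556 CPM in shRad21 culture, and 3772 to 4008 and 2808 to 3101 CPM in vivo. Markers of other cells were also present. The 10 B cell and plasma cell markers summed to 27.3 to 28.1 CPM in shLuci culture, 18.5 to 22.1 CPM in shRad21 culture (*Ms4a1* at 0 in both), 168 to 426 CPM in shLuci in vivo and 133 to 219 CPM in shRad21 in vivo. T and NK cell markers summed to 389 to 503 CPM in shLuci and 268 to 297 CPM in shRad21 in vivo, and dendritic cell markers to 100 to 134 and 31.7 to 46 CPM. Monocyte and macrophage markers summed to 204 to 271 CPM in shLuci and 172 to 188 CPM in shRad21 culture, and to 598 to 660 and 525 to 588 CPM in vivo. Neutrophil markers summed to 69.4 to 85.9 and 32.2 to 37.8 CPM in culture and to 1630 to 2031 and 1162 to 1313 CPM in vivo. Erythroid markers had lower sums with shRad21 in both settings (150 to 187 against 78.1 to 109 CPM in culture, 108 to 175 against 76 to 101 CPM in vivo). Most of the culture sum was *Hbb-bt* (134 to 174 against 63.8 to 89.2 CPM), while *Klf1* and *Epor* had log2 differences of 0.73 and 0.18. In vivo 6 of the 7 erythroid markers had log2 differences below 0, and *Epor* had 0.56. Sums of endothelial markers overlapped (210 to 284 against 268 to 375 CPM in culture, 171 to 217 against 191 to 219 CPM in vivo). In bulk libraries, fewer cells of a type and less RNA per cell cannot be told apart.

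In control cells, receptors covered a wider range of levels than ligands. In shLuci culture the 18 receptors had a median of 5.46 RPKM (means from 0.258 to 55.9 RPKM) and the 8 ligands a median of 4.06 RPKM (0.782 to 12.6 RPKM). In shLuci in vivo the medians were 2.53 RPKM for receptors (0.0105 to 55.1 RPKM) and 2.28 RPKM for ligands (0.695 to 9.49 RPKM). The same 4 receptors led both settings. *Tnfrsf1a*, the widely expressed TNF receptor with a death domain, had 55.9 ± 3.44 RPKM in culture and 49.0 ± 3.94 RPKM in vivo (SD, n = 3). *Tnfrsf1b*, the other TNF receptor, had 47.0 ± 2.6 and 35.5 ± 0.984 RPKM. *Tnfrsf21* (death receptor 6) had 30.8 ± 1.84 and 44.4 ± 2.23 RPKM. *Tnfrsf13b*, which encodes TACI, a receptor for BAFF and APRIL best known from B cells, had 29.4 ± 3.17 RPKM in culture and 55.1 ± 1.41 RPKM in vivo. Within culture the libraries of *Tnfrsf1a* and *Tnfrsf1b* did not overlap, whereas those of *Tnfrsf21* (29.5 to 32.9 RPKM) and *Tnfrsf13b* (26.2 to 32.5 RPKM) did. Among ligands, *Tnfsf14* (LIGHT) and *Tnfsf9* (4-1BB ligand) were highest in culture at 12.6 and 11 RPKM, and *Tnfsf10* (TRAIL) and *Tnfsf9* in vivo at 9.49 and 9.06 RPKM, the last pair with overlapping libraries.

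Most receptors and some ligands had higher levels in cultured than in reisolated control cells. Of 26 members tested, 14 were higher in culture (3 ligands and 11 receptors) and 5 were lower (1 ligand and 4 receptors), beside 37.1% of all 17050 tested genes higher and 37.1% lower. A gene is counted as higher or lower where its p from the quasi-likelihood test of edgeR, adjusted over all genes tested by the Benjamini-Hochberg method, was under 0.05. The median difference was 0.77 on the log2 scale over receptors and 0.22 over ligands, against -0.0062 over all genes. The receptor count and median include *Tnfrsf8*, *Tnfrsf9* and *Tnfrsf11b*, which passed the filter on low counts only through culture libraries. With a filter of at least 10 counts in every library, 10 members were higher and 5 lower of 21 tested. The medians of ligands and receptors then lay closer together.

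Several receptors with low counts in vivo were among those higher in culture. *Tnfrsf8*, *Tnfrsf9* and *Tnfrsf11b* passed the filter on low counts only through culture libraries, so their values are given without a fold or a test. *Tnfrsf9* (4-1BB, a costimulatory receptor that activated cells induce) had 9.33, 14.1 and 9.1 CPM in the culture libraries and 0.4, 0.302 and 0.883 CPM in vivo. *Tnfrsf23*, a decoy receptor for TRAIL, had 7.71, 9.7 and 16.9 CPM in culture against 0.667, 0.705 and 0.839 CPM, 3.95 higher on the log2 scale (SE 0.323, adjusted p = 3.72e-08). *Tnfrsf8* (CD30) had 5.96, 8.31 and 3.31 CPM against 0.4, 0.302 and 0.442 CPM. For *Tnfrsf23* every culture library lay above every in vivo library. *Tnfrsf11b*, which encodes osteoprotegerin, the soluble decoy receptor for RANK ligand, had 37, 31 and 13 counts in culture and 0, 0 and 2 counts in vivo. *Tnfrsf10b*, the TRAIL receptor that signals, had 23.2, 21.9 and 15.9 CPM in culture and 2.36, 2.57 and 2.96 CPM in vivo (log2 difference 2.94, SE 0.26, adjusted p = 8.74e-08). *Tnfrsf14* (HVEM, the receptor for LIGHT) had 10.4, 12.4 and 12.1 CPM against 2.53, 1.36 and 2.52 CPM (2.44, SE 0.227, adjusted p = 1.56e-07). The remaining receptors that were higher in culture, *Tnfrsf26*, *Tnfrsf4*, *Tnfrsf22*, *Tnfrsf1b* and *Tnfrsf1a*, differed by between 0.19 and 1.11. The calls on *Tnfrsf1a* and *Tnfrsf4* were the least firm. *Tnfrsf1a* was lost without shLuci culture replicate 1 (adjusted p = 0.0913) or shLuci in vivo replicate 2 (0.147), and *Tnfrsf4* without shLuci culture replicate 3 (0.0924) or shLuci in vivo replicate 1 (0.0578).

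Ligands higher in culture were *Tnfsf4* (OX40 ligand; log2 difference 1.85, SE 0.247, adjusted p = 7.44e-06), *Tnfsf12* (TWEAK; 1.58, SE 0.367, adjusted p = 0.00127) and *Tnfsf14* (0.86, SE 0.12, adjusted p = 1.09e-05). *Tnfsf10* was lower in culture, with 29, 29.2 and 32.8 CPM against 48.8, 59.3 and 41.9 CPM in vivo (-0.72, SE 0.131, adjusted p = 0.000158). The receptor furthest below its in vivo level was *Tnfrsf18* (GITR), with 11.1, 9.13 and 10.5 CPM in culture and 32.7, 41.4 and 43.1 CPM in vivo (-1.93, SE 0.143, adjusted p = 1.16e-08). Both kept receptors of BAFF and APRIL were lower in culture as well, *Tnfrsf13b* by -0.91 (SE 0.0911, adjusted p = 3.47e-07) and *Tnfrsf13c* (the BAFF receptor) by -0.65 (SE 0.172, adjusted p = 0.00332), as was *Tnfrsf21* by -0.53 (SE 0.0665, adjusted p = 4.08e-06). All 10 B cell and plasma cell markers were also lower in culture, and their part in the values of *Tnfrsf13b* and *Tnfrsf13c* was not tested. Scaling by library size only moved the median of all genes in this comparison by -0.17 and upper-quartile scaling by -0.12, and under both the call on *Tnfrsf1a* was lost (adjusted p = 0.865 and 0.363).

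**Figure D1:**
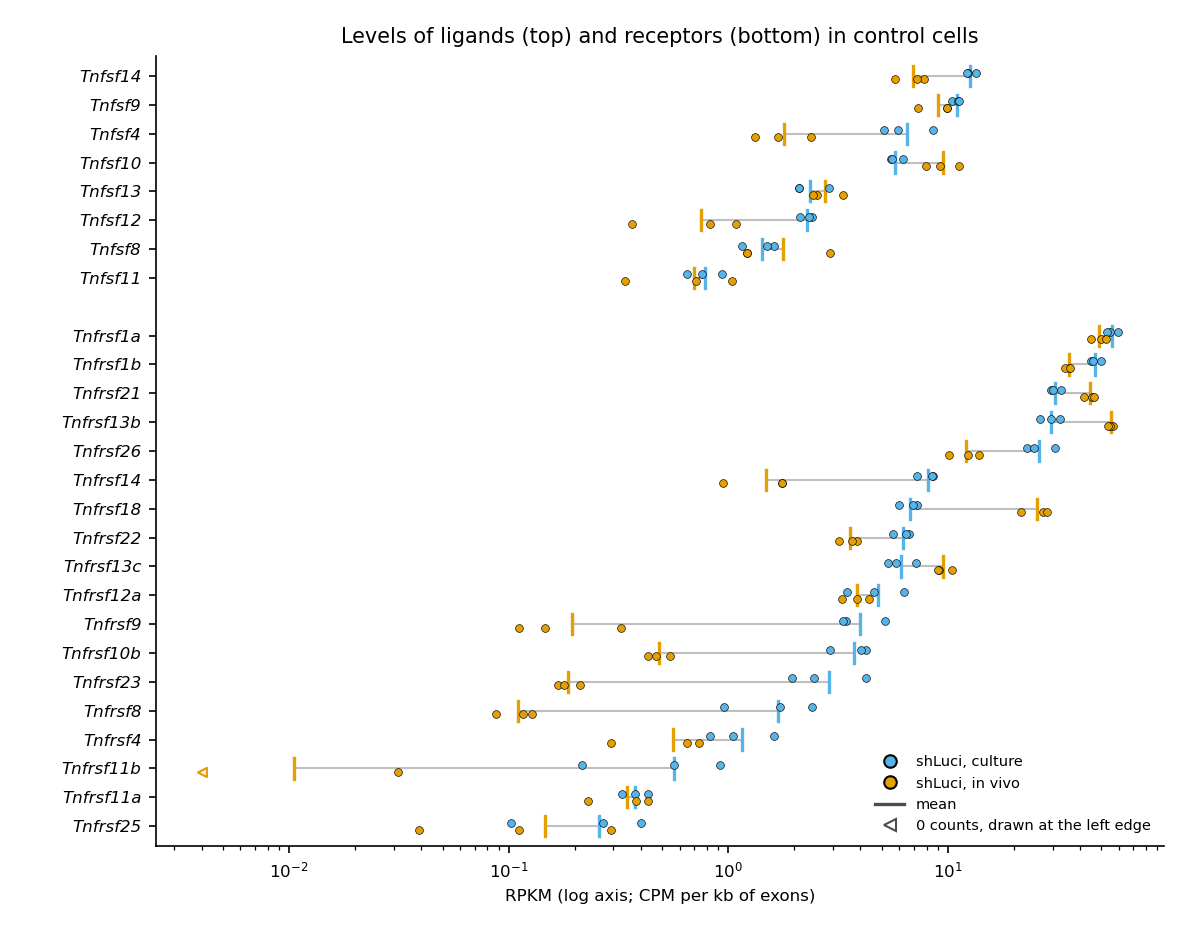
Levels of the 26 members in the shLuci libraries, in RPKM on a log axis, with 1 point per library, a vertical bar at each group mean and a line joining the means. *Tnfrsf1a*, *Tnfrsf1b*, *Tnfrsf21* and *Tnfrsf13b* lie to the far right in both settings, and *Tnfrsf9*, *Tnfrsf23*, *Tnfrsf8* and *Tnfrsf11b* show the longest lines. The open triangle of *Tnfrsf11b* stands for 2 in vivo libraries with 0 counts.

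With *Rad21* knockdown in culture, 8 of the 17 receptors tested fell and 1 rose, whereas 1 of the 8 ligands fell and 2 rose. Over all 25 members tested this made 9 lower and 3 higher, beside 8.06% of all 15543 tested genes lower and 6.18% higher. The median log2 difference was -0.51 over receptors and 0.19 over ligands, against -0.0039 over all genes. *Tnfrsf11b* was 1 of the receptors counted, and it could be tested because of its counts in the shLuci libraries. When no library was allowed under 10 counts, 8 members fell and 3 rose of 24 tested. The number of members that fell was 5 without shLuci replicate 2 or without shRad21 replicate 2, and the number that rose was 1 without shRad21 replicate 2 or replicate 3. Markers of cell types moved in both directions in the same libraries. Of the monocyte and macrophage markers 6 of 8 tested fell, among them *Csf1r* (-1.82, adjusted p = 0.0003), and 1 rose. Of 4 dendritic cell markers 3 fell and 1 rose, and 2 of 3 neutrophil markers fell. Of 5 megakaryocyte markers 2 fell and 3 rose, while 2 of 5 endothelial and 1 of 6 mast cell and basophil markers rose. Of the 9 LSK markers 2 fell, *Kit* (-1.42, adjusted p = 1.53e-05) and *Flt3* (-1.12, adjusted p = 0.00168). The 3 that rose were *Slamf1* (1.21, adjusted p = 0.000803), *Mecom* (0.58, adjusted p = 0.000848) and *Hlf* (0.50, adjusted p = 0.0119). Their part in the differences of the members was not tested.

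Both decoy receptors for TRAIL fell in culture. The decoy *Tnfrsf11b* had 37, 31 and 13 counts in the shLuci libraries and 1, 3 and 4 counts in the shRad21 libraries, close to the limit of detection, so no fold or test is given for it. *Tnfrsf23* had 7.71, 9.7 and 16.9 CPM with shLuci and 2.22, 2.68 and 3.81 CPM with shRad21, a fall to 25.5% (log2 difference -1.97, SE 0.297, adjusted p = 0.0014). *Tnfrsf22*, the other TRAIL decoy, had 23.6, 28.2 and 27.3 CPM against 18.1, 16 and 21.3 CPM, a fall to 70.3% (-0.51, SE 0.127, adjusted p = 0.0212). The shLuci and shRad21 libraries did not overlap for *Tnfrsf23* or *Tnfrsf22*, although the call on *Tnfrsf22* was lost without shLuci replicate 2 (adjusted p = 0.0929), shRad21 replicate 1 (0.0693) or shRad21 replicate 2 (0.112). *Tnfrsf22* and *Tnfrsf23* lie 16.1 kb apart on chromosome 7 of GRCm38, in a row with *Tnfrsf26*, a related receptor 6.08 kb from *Tnfrsf22* whose ligand is not established. *Tnfrsf26* had 73.7, 79.9 and 98.9 CPM with shLuci and 47.7, 54.8 and 73.9 CPM with shRad21, and the highest shRad21 library lay just above the lowest shLuci library (-0.51, SE 0.156, adjusted p = 0.0516). The labels state no pairing, and the replicate numbers were taken to pair the culture libraries from these same counts. With the number as a block *Tnfrsf26* passed the test (adjusted p = 0.000195), which is not independent support. The 3 genes are similar in sequence, so reads may have been shared or lost between them. In vivo, *Tnfrsf23* had 0.667 to 0.839 CPM with shLuci and 0.763 to 0.847 CPM with shRad21 (0.15, SE 0.363), *Tnfrsf22* differed by -0.091 (SE 0.13) and *Tnfrsf26* by -0.015 (SE 0.129), with overlapping groups in each. The difference between the experiments passed the test for *Tnfrsf23* (interaction -2.11, SE 0.459, adjusted p = 0.0166) and not for *Tnfrsf22* (-0.41, SE 0.187, adjusted p = 0.269) or *Tnfrsf26* (-0.49, SE 0.222, adjusted p = 0.266).

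The receptors of BAFF and APRIL were classed apart, whatever adaptors they bind, and 1 of the 2 tested in culture fell. The receptors classed here as TRAF-binding without a death domain numbered 8 among the tested members in culture. Of these 3 fell and none rose, beside the 8.06% lower and 6.18% higher over all genes. *Tnfrsf9* showed the largest fall of these, from 9.33, 14.1 and 9.1 CPM to 1.15, 2.83 and 2.88 CPM, or to 21.2% of the shLuci level (log2 difference -2.24, SE 0.302, adjusted p = 0.000785). *Tnfrsf8* fell from 5.96, 8.31 and 3.31 CPM to 2.22, 2.47 and 2.77 CPM, or to 43% (-1.22, SE 0.297, adjusted p = 0.019). The 3 shLuci values of *Tnfrsf8* were spread widely and the lowest was just above the highest shRad21 value. Its call was lost without shLuci replicate 2 (adjusted p = 0.0968), shRad21 replicate 1 (0.0632) or shRad21 replicate 2 (0.0626). *Tnfrsf1b* was far more abundant and changed less, from 172, 191 and 176 CPM to 117, 122 and 131 CPM, or to 69% (-0.54, SE 0.0791, adjusted p = 0.00123). It lies 20.3 kb from *Tnfrsf8* on chromosome 4 (145213463 to 145246870 and 145267137 to 145315164, both on the minus strand). In vivo *Tnfrsf1b* had 137, 131 and 138 CPM with shLuci and 122, 139 and 138 CPM with shRad21 (-0.011, SE 0.0706), and the knockdown differences of the 2 experiments themselves differed (interaction -0.52, SE 0.104, adjusted p = 0.0101). *Tnfrsf8* and *Tnfrsf9* were too low to be tested in vivo, with 9, 6 and 10 against 2, 6 and 0 counts for *Tnfrsf8* and 9, 6 and 20 against 2, 2 and 11 counts for *Tnfrsf9*. The other TRAF-binding receptors in culture, *Tnfrsf4* (OX40), *Tnfrsf11a* (RANK), *Tnfrsf12a* (the TWEAK receptor Fn14), *Tnfrsf14* and *Tnfrsf18*, differed by between -0.45 and 0.58 with adjusted p from 0.178 to 0.907, and their groups overlapped.

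The promoters of *Tnfrsf9* and *Tnfrsf8* are shown, which had the largest falls in culture within the class of TRAF-binding receptors used here. Other members that fell are not shown, among them *Tnfrsf13c* and *Tnfrsf23*. Capitals mark matches to 2 motifs, the κB consensus to which NF-κB dimers bind and the AP-1 motif TGANTCA. Each sequence runs 5′ to 3′ on the strand of its gene, from 250 bases before to 50 bases after a RefSeq start (GRCm38.p6), at chr4:150927749-150928048 on the plus strand for *Tnfrsf9* and at chr4:145315115-145315414 on the minus strand for *Tnfrsf8*. Both strands were searched.
Tnfrsf9: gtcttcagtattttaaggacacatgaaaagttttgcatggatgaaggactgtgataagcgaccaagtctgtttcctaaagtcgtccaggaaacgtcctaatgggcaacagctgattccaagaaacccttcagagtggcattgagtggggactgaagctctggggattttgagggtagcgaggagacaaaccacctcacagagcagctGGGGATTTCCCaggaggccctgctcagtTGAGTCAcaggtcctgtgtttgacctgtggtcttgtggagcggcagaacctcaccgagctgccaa
Tnfrsf8: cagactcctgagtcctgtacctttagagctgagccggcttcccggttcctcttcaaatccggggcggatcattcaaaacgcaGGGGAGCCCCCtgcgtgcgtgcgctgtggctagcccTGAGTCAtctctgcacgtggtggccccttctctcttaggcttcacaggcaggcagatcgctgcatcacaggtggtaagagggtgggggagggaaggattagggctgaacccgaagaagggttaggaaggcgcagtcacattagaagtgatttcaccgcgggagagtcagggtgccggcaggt

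In the *Tnfrsf9* window, matches to the κB consensus began 43 and 42 bases before the start and overlapped each other (GGGGATTTCC and GGGATTTCCC), and the AP-1 match began 15 bases before it. The window of *Tnfrsf8* held overlapping κB matches 168 and 167 bases before its start (GGGGAGCCCC and GGGAGCCCCC, each read on both strands) and an AP-1 match 132 bases before it. RefSeq gave windows for 19 of the 26 members, 21 windows in all because *Tnfrsf9* and *Tnfrsf25* have a pair each, and the other *Tnfrsf9* window held neither motif. A κB match was found in 3 of the 21 windows (14.3%, those of *Tnfrsf8*, *Tnfrsf9* and *Tnfrsf25*), beside 8.46% of all 32851 windows. An AP-1 match was found in 4 (19%, those of *Tnfrsf8*, *Tnfrsf9*, *Tnfsf13* and *Tnfsf14*), beside 7.81% of all windows. Among the other members that fell in culture, the windows of *Tnfrsf13c*, *Tnfrsf23*, *Tnfrsf1b* and *Tnfsf10* held neither motif. *Tnfrsf10b*, *Tnfrsf11b* and *Tnfrsf22* had no window. A match is a run of letters and not a measured binding site, and a tie between matches and falls was not tested.

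Death-domain receptors did not move in 1 direction. *Tnfrsf10b* fell in culture from 23.2, 21.9 and 15.9 CPM to 14.8, 12.5 and 10.8 CPM, or to 62.9% (log2 difference -0.67, SE 0.166, adjusted p = 0.0205). Its call was lost without shLuci replicate 1 (adjusted p = 0.069) or 2 (0.0929), or shRad21 replicate 2 (0.0766) or 3 (0.0871). *Tnfrsf21* rose from 121, 135 and 123 CPM to 153, 157 and 158 CPM (0.31, SE 0.0751, adjusted p = 0.0191), a call that was lost without shLuci replicate 1 (0.0519), shRad21 replicate 2 (0.0874) or shRad21 replicate 3 (0.0719). *Tnfrsf1a* had 155, 142 and 137 CPM with shLuci and 141, 146 and 146 CPM with shRad21 (0.0065, SE 0.0751, adjusted p = 0.973), with groups that overlapped. *Tnfrsf25* (death receptor 3) had 5 to 13 counts with shLuci and 4 to 11 with shRad21 and was not tested in culture. In vivo none of the 4 death-domain receptors passed the test, with log2 differences from 0.017 to 0.55.

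The ligands that rose in culture are neighbours. *Tnfsf12* went from 3.65, 3.54 and 3.22 CPM to 6.71, 7.83 and 6.69 CPM, a 2.05-fold rise (log2 difference 1.04, SE 0.163, adjusted p = 0.00183). *Tnfsf13* (APRIL) went from 4.7, 3.44 and 3.45 CPM to 6.67, 6.01 and 6.26 CPM, a 1.66-fold rise (0.73, SE 0.177, adjusted p = 0.0187). In both genes every shRad21 library lay above every shLuci library. The call on *Tnfsf12* was lost in 1 model of all 12 libraries (adjusted p = 0.0581), and the call on *Tnfsf13* was lost without shLuci replicate 2 (adjusted p = 0.0831) or without shRad21 replicate 1 (0.056), 2 (0.0569) or 3 (0.0547). They lie 0.465 kb apart on the minus strand of chromosome 11 (69686250 to 69695849 and 69682846 to 69685784), and 48.3% of the exonic bases of *Tnfsf12* and 60% of those of *Tnfsf13* overlap exons of other annotated genes. These are *Tnfsfm13*, a readthrough of the pair, and for *Tnfsf13* also the antisense gene *Tnfsf13os*, whose own difference in culture was 0.72 (SE 0.228, adjusted p = 0.0603). The strand setting of the counting was not given in the sources used here, so reads of *Tnfsf13* and *Tnfsf13os* may not be told apart. *Tnfsf10* fell slightly, from 29, 29.2 and 32.8 CPM to 25.5, 22.4 and 23.6 CPM (-0.34, SE 0.101, adjusted p = 0.0453). This was the weakest call in culture and was lost without any 1 of the 6 libraries (adjusted p from 0.0519 to 0.205). The other 5 ligands, *Tnfsf4*, *Tnfsf8* (CD30 ligand), *Tnfsf9*, *Tnfsf11* (RANK ligand) and *Tnfsf14*, differed by between 0.076 and 0.54 with adjusted p from 0.173 to 0.846.

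*Tnfrsf13c*, the receptor through which BAFF keeps B cells alive, was the 1 member that passed the test in both experiments. In culture it had 14.7, 11.9 and 10.9 CPM with shLuci and 4.57, 4.8 and 3.91 CPM with shRad21, a fall to 35.6% (log2 difference -1.49, SE 0.165, adjusted p = 0.000253). In vivo it had 18.6, 18.5 and 21.5 CPM against 8.92, 7.32 and 11.8 CPM, a fall to 48.3% (-1.05, SE 0.172, adjusted p = 0.00407). All shRad21 libraries lay below all shLuci libraries of the same experiment, and the interaction did not pass the test (-0.43, SE 0.25, adjusted p = 0.412). B cell and plasma cell markers moved with it in vivo, where 7 of the 10 fell, among them *Pax5* (-3.13, adjusted p = 0.00333). In culture 3 of the 10 could be tested, and *Cd79b* fell (-0.46, adjusted p = 0.0147). There *Ms4a1* was at 0, and *Cd79a*, *Pax5* and *Ebf1* were at 10 or fewer summed counts per group. The part of B-lineage cells in the difference of *Tnfrsf13c* was not tested in either experiment. *Tnfrsf13b* had 83.4, 92.3 and 74.3 CPM with shLuci and 84.5, 95.9 and 90.9 CPM with shRad21 in culture (0.13, SE 0.0952, adjusted p = 0.454), and 161, 155 and 153 CPM against 120, 140 and 117 CPM in vivo, where it fell to 81.4% (-0.30, SE 0.0801, adjusted p = 0.0422). That call was lost without any 1 library other than shRad21 replicate 2 (adjusted p from 0.0679 to 0.179), and the interaction did not pass (0.43, SE 0.128, adjusted p = 0.0714).

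**Figure D2:**
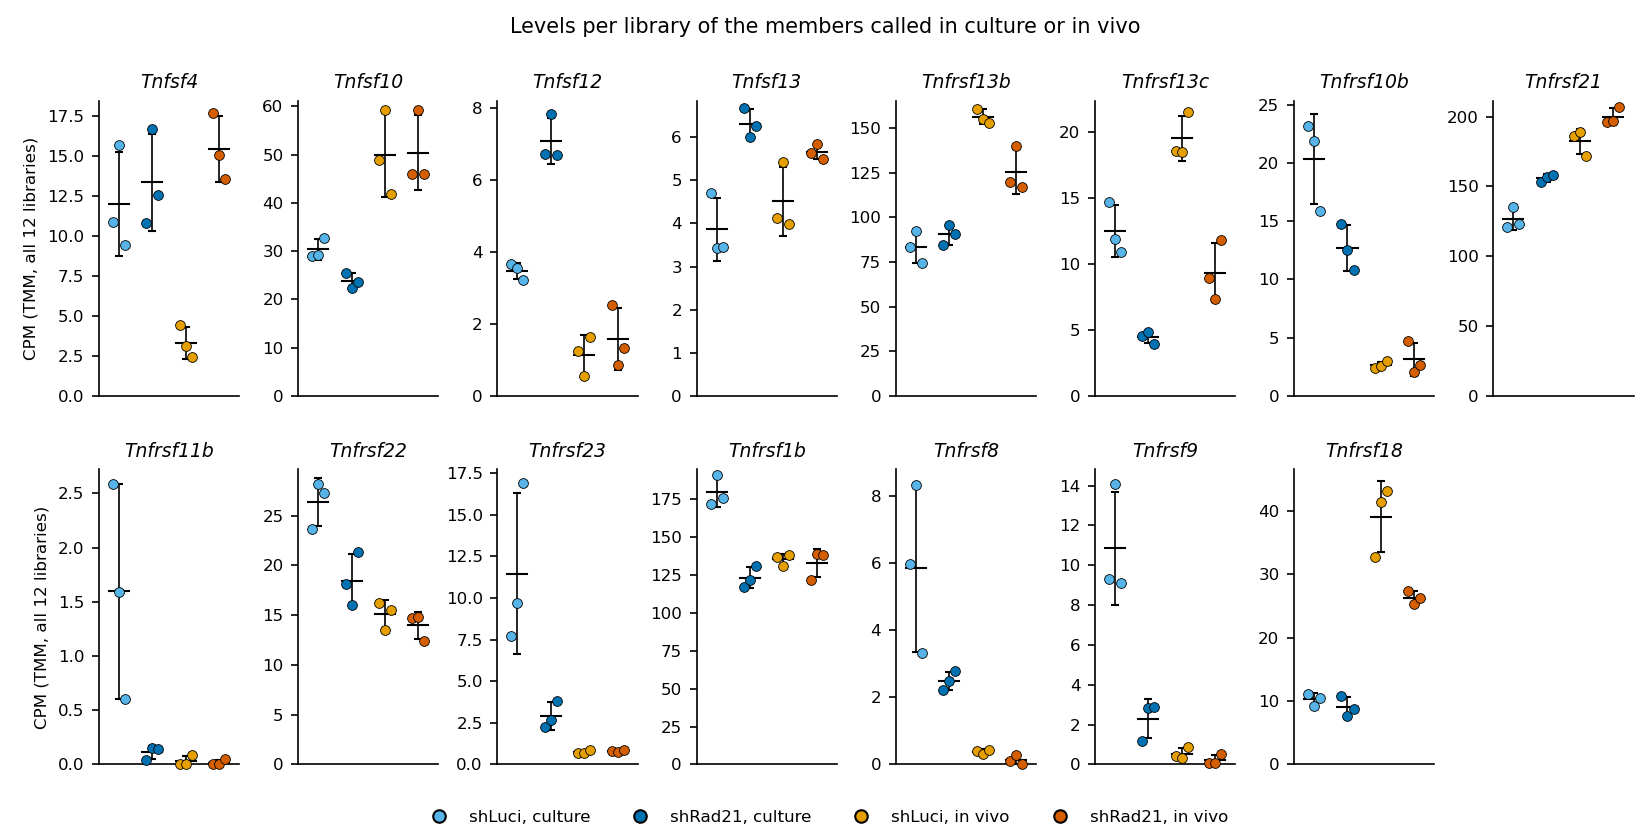
CPM in each of the 12 libraries for the 15 members that passed the test in culture or in vivo, 1 panel per gene with its own axis from 0, with the group mean and SD as a bar and whiskers. *Tnfrsf13c* is lower with shRad21 in both settings, *Tnfsf4* is higher with shRad21 in vivo, and *Tnfrsf8*, *Tnfrsf9*, *Tnfrsf11b* and *Tnfrsf23* lie near 0 in vivo.

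In the reisolated cells the largest difference was the rise of 1 ligand, *Tnfsf4*. Of 23 members tested, 3 fell (all receptors, of 15) and 1 rose (a ligand, of 8), beside 5.32% of all 15938 tested genes lower and 5.65% higher. The median log2 difference was -0.091 over receptors and 0.16 over ligands, against -0.0019 over all genes. The number that fell was 1 without shLuci replicate 2, shLuci replicate 3 or shRad21 replicate 3. Of the 9 LSK markers 3 fell in vivo, *Flt3* (-1.61, adjusted p = 2.48e-05), *Kit* (-0.42, adjusted p = 0.00659) and *Cd34* (-0.26, adjusted p = 0.0316). The 3 that rose were *Slamf1* (2.05, adjusted p = 2.18e-05), *Ly6a* (0.45, adjusted p = 0.00908) and *Mecom* (0.43, adjusted p = 0.0402). Their part in the differences of the members was not tested.

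*Tnfsf4*, the ligand of OX40, had 4.4, 3.12 and 2.43 CPM with shLuci and 17.7, 15.1 and 13.6 CPM with shRad21 in vivo, a 4.7-fold rise (log2 difference 2.23, SE 0.22, adjusted p = 0.0003). The lowest shRad21 library was far above the highest shLuci library, and the call held without each library in turn (adjusted p of at most 0.00246). In culture the shLuci libraries already had 10.9, 15.7 and 9.43 CPM and the shRad21 libraries 10.8, 16.7 and 12.6 CPM, with overlapping groups (0.16, SE 0.208, adjusted p = 0.704). The knockdown differences of the experiments differed by -2.07 (SE 0.332, adjusted p = 0.00236). Its receptor *Tnfrsf4* had 0.4, 1.01 and 0.883 CPM with shLuci and 0.64, 0.584 and 0.799 CPM with shRad21 in vivo (-0.16, SE 0.455, adjusted p = 0.881). On chromosome 1 (161395409 to 161418410) the family gene nearest to *Tnfsf4* was *Tnfsf18*, the GITR ligand 76.2 kb away, which had at most 1 count in any library. Megakaryocyte markers moved in the same direction in vivo, from a sum of 256 to 316 CPM with shLuci to 589 to 731 CPM with shRad21, as did mast cell and basophil markers, from 111 to 133 CPM to 154 to 220 CPM. In that list *Cpa3* went from 51.7 to 73 CPM to 102 to 173 CPM, and of its 8 markers 4 lay above 0 and 4 below, with a median log2 difference of 0.11. In culture, mast cell and basophil markers summed to 15.3 to 20 CPM with shLuci and 26.5 to 83.8 CPM with shRad21. Megakaryocyte markers there summed to 643 to 762 and 704 to 1032 CPM. In vivo the megakaryocyte marker *Vwf* went from 15.1 to 16.5 CPM with shLuci to 130 to 146 CPM with shRad21. The paper names VWF as a marker of myeloid-biased HSCs. The LSK marker *Slamf1* went from 10.7 to 12 CPM to 40.8 to 51.3 CPM. The part of these cells, or of shifts among the LSK cells, in the level of *Tnfsf4* was not tested.

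*Tnfrsf18*, the receptor GITR, fell in vivo from 32.7, 41.4 and 43.1 CPM to 27.4, 25.3 and 26.2 CPM, or to 68% (log2 difference -0.56, SE 0.121, adjusted p = 0.0167). The groups did not overlap, but the call was lost without shLuci replicate 2 (adjusted p = 0.0581) or 3 (0.0573), or shRad21 replicate 2 (0.05) or 3 (0.0706). In culture it had 11.1, 9.13 and 10.5 CPM and 10.8, 7.67 and 8.75 CPM (-0.17, SE 0.158, adjusted p = 0.565), and the interaction did not pass (0.40, SE 0.198, adjusted p = 0.317). Exons of the gene *Gm16008* overlap 27.2% of its exonic bases. *Tnfrsf4*, 9.55 kb from it on the same strand of chromosome 4, did not pass the test in either experiment. GITR is best known from T cells. Of 7 T and NK cell markers tested in vivo 3 fell, among them *Lck* (-1.47, adjusted p = 3.74e-05) and *Nkg7* (-0.70, adjusted p = 0.00285), *Klrb1c* rose (3.46, adjusted p = 4.69e-07) and *Cd3d*, *Cd3e* and *Cd3g* were at 14 or fewer summed counts per group. Their part in the fall of *Tnfrsf18* was not tested.

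**Figure D3:**
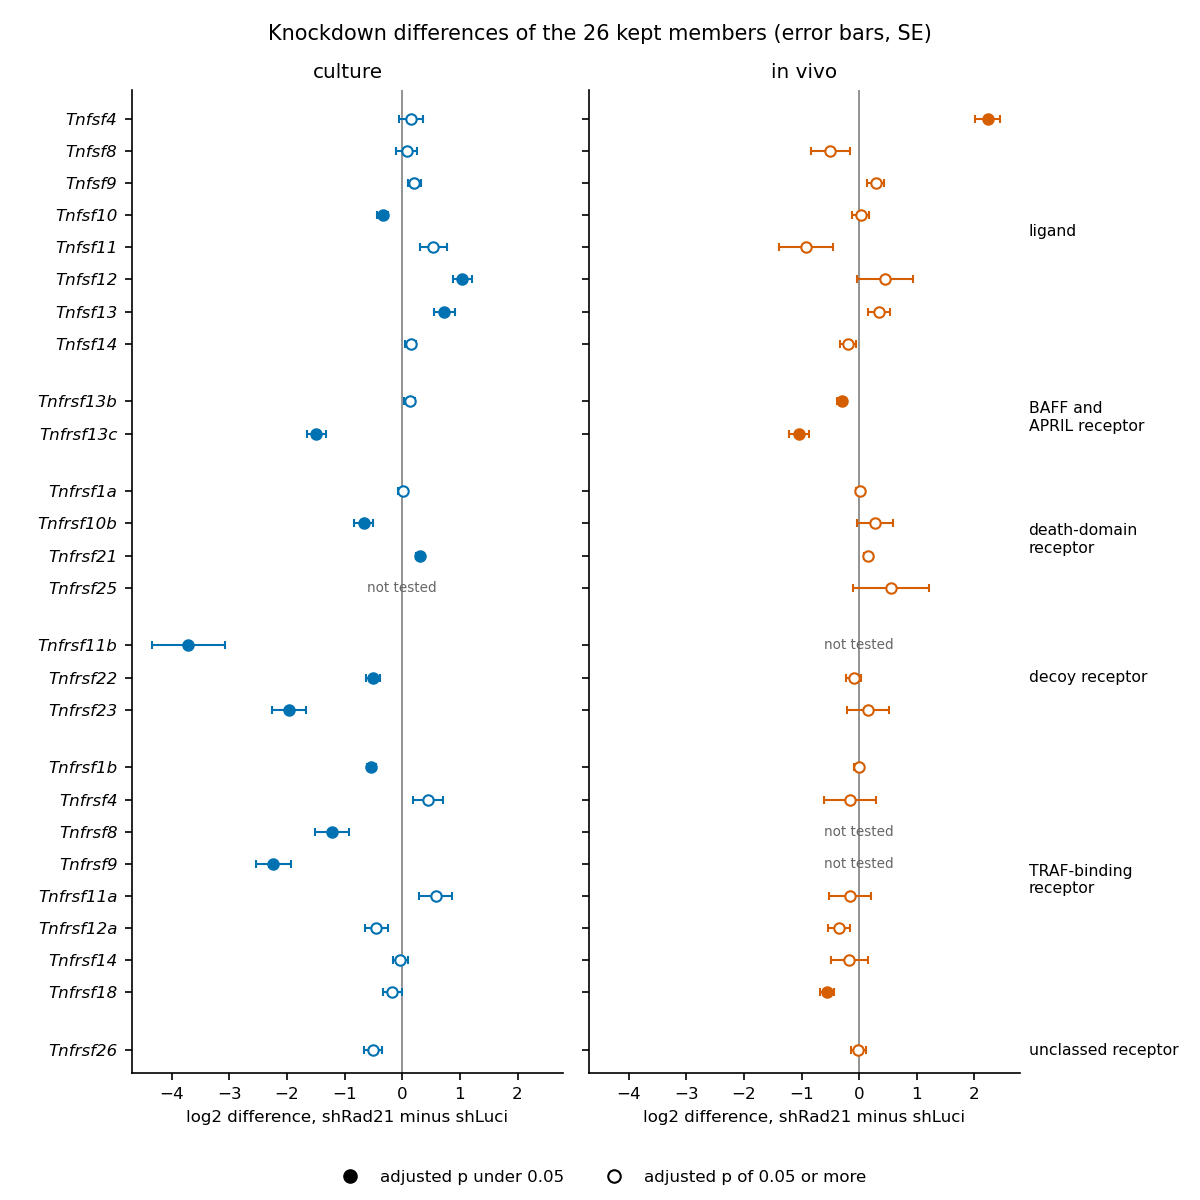
Log2 differences between shRad21 and shLuci for the 26 members in culture (left) and in vivo (right), with the SE as error bars, filled where the adjusted p was under 0.05 and grouped as ligands and receptor classes. In culture 8 of the 9 filled points to the left of 0 are receptors, and in vivo the filled point farthest from 0 is *Tnfsf4* at 2.23.

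Set side by side, 22 members were tested in both experiments. Of the 9 that passed in culture and could be tested in vivo, *Tnfrsf13c* passed in both. The test of the difference between the experiments passed for *Tnfsf4*, *Tnfrsf1b* and *Tnfrsf23*, each with the knockdown difference lower in culture than in vivo, and no member had a higher one (edgeR), beside 3.03% and 1.64% of all 17050 tested genes. With the replicate block *Tnfrsf13b* (adjusted p = 0.0487, higher in culture) and *Tnfrsf26* (0.0486, lower) also passed, and with DESeq2 *Tnfrsf13b* did (0.0209). The other members called in culture and tested in vivo had interactions from -0.93 (*Tnfrsf10b*, SE 0.357, adjusted p = 0.175) to 0.60 (*Tnfsf12*, SE 0.506, adjusted p = 0.617). The all-gene median of the interaction was 0.0057, that of ligands 0.37 and that of receptors -0.25.

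Ligand and receptor partners were set side by side in a list of 15 pairs from textbook knowledge, in which some genes stand in more than 1 pair. The list held no pair with a decoy receptor for TRAIL or with *Tnf*. In culture *Tnfrsf22* and *Tnfrsf23* fell, as *Tnfsf10* did. Of the TNF receptors *Tnfrsf1b* fell, as *Tnf* did, and *Tnfrsf1a* did not pass. Of the listed pairs, 9 had both partners kept and tested in culture. Both passed in 1 pair, *Tnfsf10* and *Tnfrsf10b*, which both fell. In 5 pairs 1 partner passed and in 3 neither did. For example, *Tnfrsf9* fell while its ligand *Tnfsf9* had 13.6, 14.3 and 14.6 CPM with shLuci and 16.9, 16.6 and 15.6 CPM with shRad21 (log2 difference 0.21, SE 0.109, adjusted p = 0.243). *Tnfsf12* rose while its receptor *Tnfrsf12a* had 12.2, 8.93 and 6.72 CPM against 6.55, 6.51 and 7.01 CPM (-0.45, SE 0.201, adjusted p = 0.178). *Tnfsf11*, the ligand of *Tnfrsf11b*, was at 2.1, 1.69 and 1.45 CPM against 3.01, 2.42 and 2.1 CPM (0.54, SE 0.24, adjusted p = 0.173), with overlapping groups. *Tnfrsf11b* itself could be tested only because of its counts in the shLuci libraries. *Tnfsf13b*, which encodes BAFF, was at or below 12 counts in every library. In vivo 6 pairs had both partners tested, with 1 partner passing in 2 and neither in 4. Over all members tested in culture, 1 of 8 ligands fell and 2 rose, and 8 of 17 receptors fell and 1 rose. In vivo 1 of 8 ligands rose and 3 of 15 receptors fell. Whether partners passed together more or less often than such shares give was not tested.

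Of 7 family ligands with other symbols, 4 were tested in culture and 3 in vivo, and 2 of them, *Tnf* and *Ltb*, fell in both, beside 8.06% of all genes lower in culture and 5.32% in vivo. *Tnf* was the ligand with the largest fall in culture, from 98.1, 68.5 and 50 CPM to 19.6, 22.6 and 18.4 CPM, or to 28.2% (log2 difference -1.83, SE 0.203, adjusted p = 0.000255). Reisolated cells held much less of it, 3.38, 3.62 and 3.49 CPM with shLuci and 1.65, 1.62 and 1.98 CPM with shRad21 (-0.99, SE 0.228, adjusted p = 0.022), and that call was lost without any 1 library other than shLuci replicate 1 (adjusted p from 0.053 to 0.0754). In control cells *Tnf* was 20.6-fold higher in culture than in vivo (4.36, SE 0.216, adjusted p = 1.47e-10). *Ltb* (lymphotoxin beta), 3.06 kb from *Tnf* on chromosome 17, fell in culture from 358, 249 and 210 CPM to 94.5, 148 and 121 CPM (-1.16, SE 0.194, adjusted p = 0.00257) and in vivo from 97.9, 114 and 166 CPM to 74, 61 and 85.5 CPM (-0.76, SE 0.181, adjusted p = 0.0246), where the call was lost without shRad21 replicate 1 (0.0764) or 2 (0.0829). *Lta*, next to *Tnf* on its other side, did not pass in culture (-0.76, SE 0.395, adjusted p = 0.251) and passed with the replicate block (adjusted p = 0.0283). *Fasl*, *Cd40lg* and *Cd70* had at most 14 counts in any library.

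Of 8 receptors with other symbols, 2 fell and 1 rose among 5 tested in culture, and 1 fell and 1 rose among 7 tested in vivo. Over all genes 8.06% were lower and 6.18% higher in culture, and 5.32% and 5.65% in vivo. *Fas*, the death receptor for FAS ligand, fell in culture from 5.96, 8.93 and 5.97 CPM to 2.97, 3.79 and 3.56 CPM (log2 difference -1.01, SE 0.206, adjusted p = 0.00747) and rose in vivo from 1.6, 2.11 and 1.06 CPM to 3.8, 3.5 and 3.95 CPM (1.25, SE 0.286, adjusted p = 0.021). The in vivo call was lost without shLuci replicate 1 (0.053) or shRad21 replicate 1 (0.0626) or 3 (0.0827), and the interaction was -2.26 (SE 0.351, adjusted p = 0.00191). *Cd27*, a lymphocyte receptor that early progenitors also carry, showed the opposite order, with a rise in culture from 69.4, 50.8 and 64 CPM to 102, 83.1 and 84.2 CPM (0.56, SE 0.123, adjusted p = 0.0114) and a fall in vivo from 347, 365 and 357 CPM to 255, 275 and 283 CPM (-0.38, SE 0.0622, adjusted p = 0.00403; interaction 0.95, SE 0.147, adjusted p = 0.00192). *Eda2r* fell in culture from 16.8, 22.4 and 11 CPM to 8.45, 8.99 and 8.61 CPM (-0.94, SE 0.216, adjusted p = 0.0143), which was lost without shLuci replicate 2 (0.0663). *Ltbr*, the lymphotoxin beta receptor, and *Relt* differed by at most 0.12 on the log2 scale in either experiment and did not pass.

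Downstream of the receptors, 4 of 32 adaptors and proximal signalling genes fell and 2 rose in culture, and 1 fell in vivo, beside the 8.06% lower and 6.18% higher over all genes in culture and the 5.32% lower in vivo. *Tnip1* (-1.14, SE 0.13, adjusted p = 0.0003), *Tnfaip3* (-1.10, SE 0.144, adjusted p = 0.000638) and *Birc3* (-0.74, SE 0.107, adjusted p = 0.00106) fell with no overlap between groups, and all 3 are known both as brakes or modifiers of TNF receptor signalling and as genes that NF-κB induces. *Tnfaip3*, which encodes the ubiquitin-editing enzyme A20, had 116, 127 and 99.9 CPM with shLuci and 44.1, 66 and 49 CPM with shRad21. *Tab2* (-0.30, adjusted p = 0.0384) fell, and *Ripk1* (0.31, adjusted p = 0.0254) and *Mlkl* (0.29, adjusted p = 0.0308) rose, while *Ripk3* differed by -0.0064 (adjusted p = 0.974). The calls on *Tab2*, *Ripk1* and *Mlkl* were each lost without at least 4 of the libraries in turn (adjusted p of up to 0.128, 0.104 and 0.123). *Tab2* was lost without any library but shLuci replicate 1, *Mlkl* without any but shLuci replicate 3, and *Ripk1* without shLuci replicate 1 or any shRad21 library. With the replicate block, *Traf1* (adjusted p = 0.00634) also fell and *Fadd* (0.0346) also rose. In vivo *Traf5*, a TRAF used by CD27, CD40 and OX40, was the 1 gene of the 32 that passed, and it fell from 11.9, 13 and 14.7 CPM to 6.54, 7.18 and 8.47 CPM (-0.82, SE 0.153, adjusted p = 0.00793). The knockdown difference was lower in culture than in vivo for *Tnip1*, *Birc3*, *Tnfaip3* and *Traf1* and higher for *Traf5*.

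**Figure D4:**
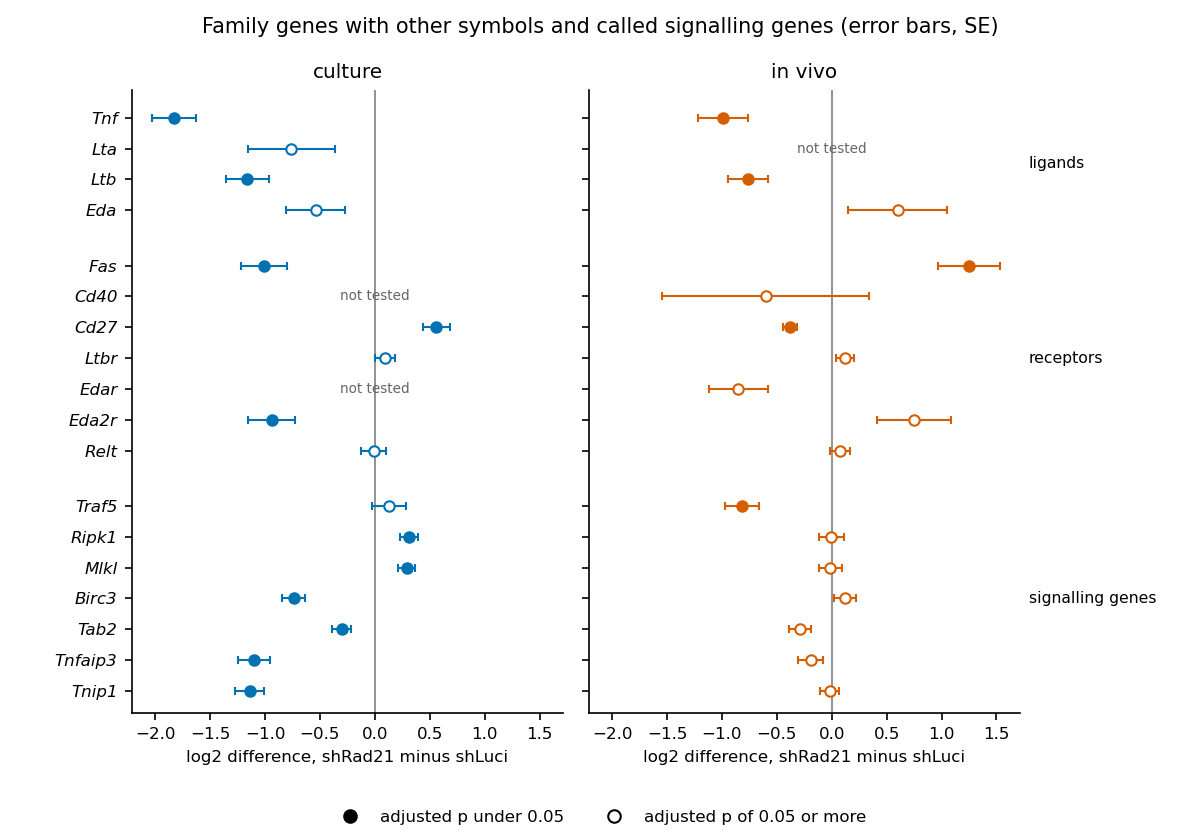
Log2 differences between shRad21 and shLuci with the SE for the tested family genes with other symbols and for the signalling genes that passed the test in at least 1 experiment, filled where the adjusted p was under 0.05. *Tnf* and *Ltb* lie to the left of 0 in both panels, while *Fas* and *Cd27* lie on opposite sides of 0 in culture and in vivo.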

How the data were processed

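The authors trimmed the reads, mapped them to GRCm38 with TopHat2 2.0.11, and counted them on Ensembl genes with HTSeq 0.6.1, per the labels and the study's methods. The authors deposited the counts as they were, unnormalized whole numbers, for 12 libraries in 4 groups taken from the labels. Depth and the limit that 3 counts set are given with the results and cover counting error only, since no molecular identifiers were used and reads can be copies of 1 molecule. Replicates differed in their counts by 6.16 to 22.6 times what sampling alone gives (chi-square over its degrees of freedom), and for abundant genes the precision is therefore set by the spread between libraries.

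Gene symbols, types and exon lengths came from GENCODE M21, which matched 45229 of 46078 genes (the 849 others held 0.105% of all counts). Genes passed filterByExpr with a minimum count of 10 in 3 libraries, scaled to the median depth, and a total of 15, and were normalized with TMM and tested two-sided with the quasi-likelihood test of edgeR 4.0.16 in R 4.3.3, with Benjamini-Hochberg adjustment over all tested genes and a threshold of 0.05. Culture and in vivo were fitted separately, and the comparison of control cells and the interaction used all 12 libraries. SEs were derived from the F statistic. The steps were tested on simulated counts. DESeq2 1.42.0, other scalings and filters, a replicate block, 1 model of all 12 libraries and the omission of each library were alternatives. The block without each replicate number in culture was chosen after seeing the data.

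Same-numbered libraries of the 2 culture groups deviated together from their group means (r from 0.216 to 0.262 across 15543 genes, against -0.322 to 0.0686 for different numbers), so the replicate numbers of the labels were taken to pair them. The labels state no pairing, and these ranges are not independent because deviations from a group mean cancel out. The main tests did not use the pairing.

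The members, gene lists and receptor classes were chosen with earlier results of these data known. Full values were given for members that passed the test and their partners. Other family genes were named where they passed, up to 10 per list and comparison, and *Tnf* always. *Ltbr*, *Relt*, *Lta*, *Fasl*, *Cd40lg*, *Cd70*, *Fadd* and *Traf1* in culture, and single marker genes, were named after their values were seen. Motifs were searched in the promoter windows of RefSeq with Python 3.11.15.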

Additional observations from a re-analysis of the deposited data

Results flagged for a closer look

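The knockdown difference (shRad21 minus shLuci, log2) was compared between culture and in vivo with the interaction term of edgeR's quasi-likelihood test over all 12 libraries, and 11 family and signalling genes are listed because that test of the difference passed. Among the members these were *Tnfsf4* (-2.07, adjusted p = 0.00236), *Tnfrsf23* (-2.11, adjusted p = 0.0166) and *Tnfrsf1b* (-0.52, adjusted p = 0.0101), each with the difference lower in culture. *Tnfsf4* rose in vivo (2.23) and did not pass the test in culture (0.16), whereas *Tnfrsf23* and *Tnfrsf1b* fell in culture and differed by 0.15 and -0.011 in vivo, where they did not pass.

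Among other receptors of the family, *Fas* had an interaction of -2.26 (adjusted p = 0.00191), *Cd27* of 0.95 (adjusted p = 0.00192) and *Eda2r* of -1.68 (adjusted p = 0.0239). *Fas* and *Cd27* passed the test in opposite directions in the 2 experiments, while *Eda2r* fell in culture and did not pass in vivo (0.75, SE 0.34, adjusted p = 0.215).

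Among signalling genes the values were -1.13 for *Traf1* (adjusted p = 0.0315), 0.96 for *Traf5* (adjusted p = 0.0235), -0.85 for *Birc3* (adjusted p = 0.00451), -0.90 for *Tnfaip3* (adjusted p = 0.0152) and -1.11 for *Tnip1* (adjusted p = 0.00168). *Traf1* passed in neither experiment alone, with -0.59 in culture (adjusted p = 0.0572) and 0.55 in vivo (adjusted p = 0.0669), but passed in both with the replicate block (0.00634 in culture, where the numbers were taken to pair the libraries, and 0.0288 in vivo, where they were not) and with DESeq2 (0.0112 and 0.0239). The calls on *Eda2r* and *Traf1* were each lost in 7 of the 12 fits that left out 1 library (adjusted p of up to 0.0816 and 0.0917) and that on *Traf5* in 4 (up to 0.0669). Kit, sorted population and setting cannot be told apart in any of these.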

How the results depend on the processing

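For the 38 results on single members, 559 alternatives were computed, of which 510 kept direction and side of the threshold, 49 kept the direction and no longer passed, and 0 reversed. Of the counts and medians, these moved. In culture, the number of members that rose was 1 with the replicate block without replicate 2 and 5 with it without replicate 3. The difference between the ligand and receptor medians was 0.32 in vivo with no filter on low counts and 0.32 in 1 model of all 12 libraries, and -0.084 in control cells with at least 10 counts in every library. The number of members with a higher interaction was 1 with DESeq2, no filter or the replicate block, and the number with a lower one was 5 with no filter. The cause was not tested.

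Without each library in turn, 5 to 9 members fell and 1 to 3 rose in culture (difference of medians 0.58 to 0.80), and 1 to 2 fell and 1 rose in vivo (0.13 to 0.20). In control cells 5 were lower and 13 to 16 higher (-0.64 to -0.21). For the interaction 3 were lower and 0 to 1 higher (0.46 to 0.65). With the block, 10 members fell and 3 rose in culture, and it changed no member's call there other than that of *Tnfrsf26*. The in vivo replicate numbers were not taken to pair the libraries (r from 0.024 to 0.0694 for the same number and -0.0924 to 0.0446 for different ones), and with the block 3 members fell and 1 rose. *Tnfrsf8*, *Tnfrsf9* and *Tnfrsf11b* did not pass the filter on counts in vivo and were not tested there.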

Other observations

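The 5 genes of the family that were too low to be kept gave these counts. *Tnfsf15* (TL1A, the ligand of death receptor 3) had 5, 9 and 7 counts in the shLuci in vivo libraries and 0, 0 and 0 in the shRad21 in vivo libraries, and at most 1 count in any culture library. *Tnfrsf19* (TROY) had 0, 34 and 21 counts with shLuci and 1, 5 and 5 with shRad21 in vivo, and the shLuci library with 0 counts overlapped the shRad21 range. *Tnfrsf17* (BCMA, a receptor for APRIL and BAFF) had 2, 8 and 9 counts against 6, 8 and 3 in vivo, and *Tnfsf13b* had 0, 5 and 10 against 7, 6 and 12. *Tnfsf18* had 0 or 1 count in each of the 12 libraries.

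*Edar*, the receptor for ectodysplasin, had 4, 2 and 5 counts in shLuci culture and 79, 103 and 125 counts in shLuci in vivo. It passed the filter on low counts through the in vivo libraries, so no fold or test is given between settings. Its relative *Eda2r* was higher in cultured than in reisolated control cells (log2 difference 3.85, SE 0.289, adjusted p = 1.40e-08 by edgeR's quasi-likelihood test). In vivo *Edar* had 42, 66 and 62 counts with shRad21 (-0.85, SE 0.267, adjusted p = 0.0747), which did not pass the test. *Cd27* was also lower in cultured than in reisolated control cells (-2.54, SE 0.11, adjusted p = 3.57e-11). These genes were picked after their values were seen.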
